A study of Caenorhabditis elegans with 4 samples.

Results

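The genes described here encode the dosage compensation complex of the nematode Caenorhabditis elegans and the switch that controls it. They are 10 listed genes, sdc-1, sdc-2, sdc-3, dpy-21, dpy-26, dpy-27, dpy-28, mix-1, capg-1 and xol-1, out of 19971 protein-coding genes on the 6 nuclear chromosomes. They were chosen by name, as a list made with earlier results of these data known. The data are 4 lists of ChIP-seq peaks from whole late embryos of strain JA1597, aged for 3.5 hours at room temperature after collection. All 4 samples share this strain, which carries a transgene inserted at 1 site on chromosome IV with the dpy-30 promoter in front of a CFP-1 coding region joined to GFP. In 2 samples the chromatin was precipitated with a serum against GFP, which pulls down the CFP-1::GFP fusion, and in the other 2 with an antibody to histone H3 trimethylated at lysine 4 (H3K4me3). Each antibody has a sample numbered RC03 and one numbered RC04. The tagged protein comes from the transgene's promoter and not from the gene's own, so its amount may differ from that of native CFP-1. Peaks from a strain that lacks GFP were not analysed here.

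Worm hermaphrodites have a pair of X chromosomes and males a single one. In hermaphrodites the dosage compensation complex, a specialised condensin, binds both X chromosomes and lowers their transcription. XOL-1 is the switch: it is active in XO embryos, where it keeps sdc-2 off, and it is repressed in XX embryos, where SDC-2 then brings the complex to X. CFP-1 is the CXXC zinc finger subunit of the COMPASS histone methyltransferase, and H3K4me3 is the mark that COMPASS deposits, mostly at promoters. Many worm transcripts receive a spliced leader, so an annotated gene end need not be the place where transcription begins.

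The comparison asks which of these 10 genes had peaks of each antibody, and whether the peaks of both coincide. The gene table at hand gives the lower and upper coordinate of each gene but no strand. Both ends of every gene were therefore examined, and a peak was assigned to a gene when it came within 500 bp of an end. The table is of assembly WBcel235 and the peaks are in build ce10, whose chromosome lengths differ by about 100 bp at most. Distances to a gene end carry that uncertainty, and all positions below are peak positions in ce10.

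CFP-1 was called at 8 of the 10 genes and H3K4me3 at 7, each in both lists of its antibody. Among all protein-coding genes, 25.9% had CFP-1 and 30.6% had H3K4me3 by the same rule. All 7 genes with the mark also had CFP-1, and peaks of both antibodies overlapped at each of them. Overlapping peaks were thus found at 7 of the 10 genes, against 22.8% of all protein-coding genes. Overlap was usual wherever both antibodies were called: 4623 protein-coding genes had both, and 4547 had overlapping peaks. Over all 46890 genes of the table, which include many short non-coding ones, the shares were 17.5% for CFP-1, 20.3% for H3K4me3 and 13.9% for overlapping peaks. The exceptions were xol-1, with CFP-1 alone, and dpy-21 and dpy-28, with neither. CFP-1 without a called mark occurred at 2.77% of protein-coding genes, H3K4me3 without CFP-1 at 7.43%, a class with 0 of the 10, and neither antibody at 66.6%. The listed genes are long, from 3097 bp for xol-1 to 17179 bp for mix-1. Among protein-coding genes of at least 3000 bp, a background chosen after the values were seen, the shares were 31.9% for CFP-1, 37.1% for H3K4me3 and 27.8% for overlapping peaks. No test was run on these counts, because listed genes are not replicates. With a window of 250 bp, CFP-1 was no longer called at sdc-2 and dpy-27, and among the 50% of peaks with higher scores it was no longer called at xol-1, nor the mark at sdc-2.

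At each of the 8 genes with a call, peaks lay at 1 end and none at the other. Among the 4623 protein-coding genes with both antibodies called, 64.0% had peaks at a single end, and among those of at least 3000 bp 80.1% did. The end with peaks was the lower one at xol-1, sdc-1, sdc-2 and mix-1, and the upper one at sdc-3, dpy-26, dpy-27 and capg-1.

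The switch gene xol-1, on X, had CFP-1 close to its lower end and no called mark there. XOL-1 is a protein related to GHMP kinases. The CFP-1 peak in RC03 lay at 8041020 to 8041303, from 10 to 293 bp outside the gene, with a score of 12.1. In RC04 it lay at 8040986 to 8041244, from 69 to 327 bp outside, with a score of 22.1. The score is the authors' own value from their peak caller, the −log10 of either a p-value or a q-value, and it grows with read depth, which is unknown. Scores were therefore turned into percentile ranks within each list, in which the strongest peak has the highest rank. Called protein-coding genes had a median rank of 77.7 for CFP-1 and 84.9 for H3K4me3, so ranks of both antibodies do not share a baseline. These peaks ranked at percentiles 49.9 and 64.7, a mean of 57.3 ± 10.5 (SD, n = 2). That difference of 14.9 points between the lists was the widest for CFP-1 among these genes, where the median over all called protein-coding genes was 2.91 points and the 90th percentile 16.6. The nearest H3K4me3 peaks lay farther out. In RC03 the nearest one began 764 bp from the gene end, scored 8.09 and ranked at 55.3, and in RC04 the nearest began at 1039 bp, scored 3.24 and ranked at 15.2. The mark nearest to xol-1 thus ranked above CFP-1 in RC03 and far below it in RC04. A second, weaker CFP-1 peak lay at about the same distance in both lists, scoring 5.92 in RC03 and 8.64 in RC04, and began 1299 and 1257 bp from the end. No other protein-coding gene had an end within 500 bp of the peaks at xol-1. The chromatin came from whole embryos in bulk, so a peak present in few cells or animals cannot be told apart from a weaker one present in all.

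The SDC genes had both antibodies, with mean ranks below the median of called protein-coding genes for each antibody. SDC-2 is the hermaphrodite-specific protein that brings the complex to X, and SDC-1 and SDC-3 are zinc finger proteins that act with it. At sdc-1, on X, the CFP-1 peaks lay at 16275226 to 16275581 in RC03 and 16275282 to 16275531 in RC04, with scores of 37.0 and 36.4 and ranks of 75.2 and 74.4. Its strongest H3K4me3 peaks within 500 bp scored 18.3 in RC03 and 29.8 in RC04, at ranks of 69.8 and 77.8. The CFP-1 ranks thus lay close together and within the range of the mark's. Of the called protein-coding genes, 45.4% had a lower mean rank than sdc-1 for CFP-1 and 28.5% for the mark.

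At sdc-2, also on X, CFP-1 was called at 11522038 to 11522355 in RC03 and 11522058 to 11522407 in RC04, from 352 to 669 bp and from 300 to 649 bp outside the lower end. The scores were 37.1 and 27.6 and the ranks 75.3 and 69.4. The H3K4me3 peak within 500 bp of the gene was weaker, with scores of 6.57 and 10.2 and ranks of 48.7 and 62.1. Within that distance both CFP-1 ranks lay above both ranks of the mark, and the mean rank of the mark was the lowest among the 7 genes that had it. A stronger H3K4me3 peak, scoring 15.0 in RC03 and 15.2 in RC04, began 619 and 613 bp outside the gene, beyond the distance allowed. It ranked at 66.7 and 69.7, and with it neither order holds.

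At sdc-3, on chromosome V, the CFP-1 peaks were the narrowest of the 8 and the lowest by mean rank, at 15048268 to 15048449 in RC03 and 15048212 to 15048392 in RC04. They scored 14.2 and 12.0, ranked at 54.4 and 50.02, and were 182 and 181 bp wide. The H3K4me3 peaks scored 20.2 and 11.2, with ranks of 71.0 and 64.4. They lay mostly inside the gene end, reaching 256 bp and 134 bp into it, while the CFP-1 peaks lay just outside it. Both antibodies shared only 12 bp in RC03, against 97 bp in RC04. In rank the mark lay above CFP-1 in both lists. Against the called protein-coding genes of each antibody the gene stood alike: 22.5% had a lower mean rank for CFP-1 and 22.0% for the mark.

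The condensin subunits fell into 4 genes with peaks of both antibodies and 1, dpy-28, without any. DPY-27 is the SMC4-type ATPase found only in the dosage compensation complex, and its partner MIX-1 is the SMC2-type ATPase that it shares with the mitotic condensins. The CFP-1 peaks at dpy-27, on chromosome III, were the strongest of the set, scoring 93.6 in RC03 and 101 in RC04 and ranking at 91.4 and 91.3. They lay at 3820092 to 3820529 and 3820054 to 3820542, from 413 to 850 bp and from 375 to 863 bp outside the upper end. The H3K4me3 peaks there scored 41.5 and 38.3, with ranks of 80.3 and 81.4, and ran from 694 bp and 650 bp inside the gene to 624 bp and 618 bp outside it. Each antibody gave nearly the same rank in both lists, and the CFP-1 ranks stand above those of the mark.

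At mix-1, on chromosome II, CFP-1 lay across the gene end itself, at 10824025 to 10824376 in RC03 and 10824076 to 10824359 in RC04. The scores were 46.3 and 42.3 and the ranks 79.6 and 76.9. The H3K4me3 peaks were the widest of the set, 1455 and 1597 bp, with scores of 52.4 and 54.6. They covered each CFP-1 peak completely and ran about equally far to either side, 714 bp inside and 740 bp outside the end in RC03. An end of the neighbouring coding gene R06F6.12 lies 165 bp from that of mix-1, so the peaks cannot be assigned to either gene alone. The body of mix-1 held another CFP-1 peak in both lists, at 10832385 to 10832845 and 10832399 to 10832802, about midway along the gene. It scored 6.38 and 7.07 and no H3K4me3 peak touched it.

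DPY-26, DPY-28 and CAPG-1 are the regulatory subunits shared with the mitotic condensin I. The mark at dpy-26, on chromosome IV, was the strongest of the set, with H3K4me3 scores of 80.5 and 84.9 and ranks of 94.5 and 97.3. Its CFP-1 peaks scored 36.3 in RC03 and 24.0 in RC04 and ranked at 74.9 and 66.5. They lay across the gene end at 12451245 to 12451565 and 12451182 to 12451532, wholly inside the marked interval. At dpy-26 the mark therefore ranked above CFP-1 in all comparisons of lists. An end of the coding gene spe-44 lies 728 bp from that of dpy-26 and within 500 bp of these peaks in all lists but CFP-1 RC04, so the peaks cannot be assigned to dpy-26 alone.

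At capg-1, on chromosome I, CFP-1 was called at 7639856 to 7640269 in RC03 and 7639900 to 7640317 in RC04, with scores of 43.1 and 53.6 and ranks of 78.2 and 81.5. The H3K4me3 peaks scored 38.1 and 49.3, ranked at 79.0 and 85.4, and enclosed the CFP-1 peaks. The ranges of the ranks of both antibodies overlap. Of the called protein-coding genes, 54.2% had a lower mean rank than capg-1 for CFP-1 and 42.8% for the mark. The CFP-1 peaks lie between capg-1 and F26A3.1, whose nearest end is 563 bp from that of capg-1. The H3K4me3 peaks span the end of capg-1, from 163 bp and 226 bp inside it to 609 bp and 730 bp outside. Peaks of both antibodies may thus belong to either gene.

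**Figure D1:**
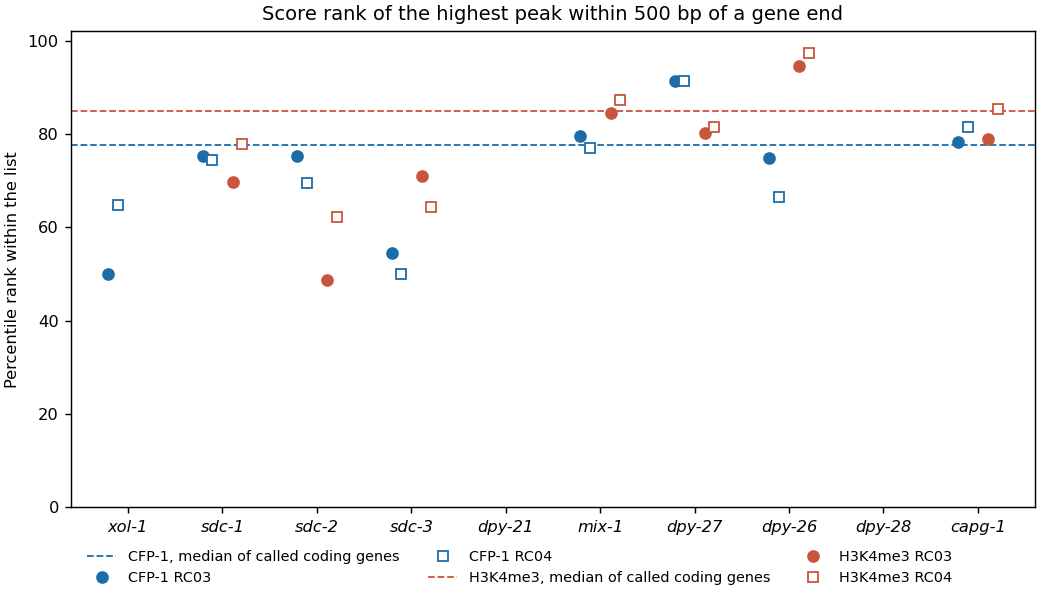
Percentile rank within its list of the highest-scored peak within 500 bp of a gene end, for each gene and list, filled for RC03 and open for RC04, with dashed lines at the medians of all called protein-coding genes (77.7 for CFP-1 and 84.9 for H3K4me3). CFP-1 is highest at dpy-27 and H3K4me3 at dpy-26, and genes without points had no peak.

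The genes dpy-21 and dpy-28 had no peak within 500 bp of either end in any list. DPY-21 is the histone demethylase of the complex, which turns dimethylated into monomethylated lysine 20 of histone H4. Beyond its upper end, strong peaks of both antibodies were called at a distance. The CFP-1 peaks lay at 17951115 to 17951727 in RC03 and 17951009 to 17951725 in RC04 on chromosome V, began 1922 and 1816 bp from the gene end, and scored 128 and 131. They came within 222 and 224 bp of an end of the next coding gene, Y59A8B.24. An H3K4me3 peak that overlaps them on the side of dpy-21, beginning 1299 and 1142 bp from dpy-21, scored 68.3 and 54.3. Another that overlaps them on the far side lay on the end of Y59A8B.24 and scored 75.1 and 53.9. The nearest peak of any list was a weak H3K4me3 peak of RC04, which scored 3.52 and began 509 bp from the end, just past the limit.

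At dpy-28, on chromosome III, the nearest peaks lay inside or at the far end of the neighbouring gene tasp-1, whose closer end is 125 bp from the lower end of dpy-28. The CFP-1 peaks that reach the far end of tasp-1, at 10758909 to 10759476 in RC03 and 10758882 to 10759437 in RC04, scored 183 and 182 and ranked at 99.7 and 99.1. They began 3655 and 3694 bp from dpy-28. An H3K4me3 peak of 2037 bp in RC03 and 2277 bp in RC04, with scores of 80.8 and 81.5, covered the same place and began 2813 and 2698 bp from dpy-28. An end of another coding gene, K01G5.10, also lay under that peak in both lists. Whether dpy-28 is transcribed from there was not tested, and the gene table gives no operons.

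The CFP-1 peak lay in a gap between a pair of H3K4me3 peaks at 3 of the 8 genes, sdc-1, sdc-2 and dpy-27, in both lists. It touched a marked peak on each side, and the gap between these measured from 127 bp (sdc-1 in RC04) to 193 bp (sdc-2 in RC03). At dpy-27 the inner marked peak was the stronger, with scores of 41.5 and 38.3, against 11.1 and 11.2 for the outer one. At sdc-2 it was the outer one, with scores of 15.0 and 15.2, against 6.57 and 10.2 for the inner one. Over all CFP-1 peaks, 8.21% in RC03 and 9.03% in RC04 touched more than 1 H3K4me3 peak, and among those that touched any the shares were 12.3% and 13.5%. These shares count peaks of each list wherever they lie. The 3 of 8 counts genes and needs both lists, so it cannot be compared directly with them. The distant CFP-1 peaks beyond dpy-21 also lay in such a gap, of 118 and 133 bp. At mix-1, dpy-26 and capg-1, by contrast, 1 H3K4me3 peak enclosed the whole CFP-1 peak. This arrangement was singled out after the values had been seen, and no test was made of it.

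The single peak of the mark was narrower at the SDC genes than at the condensin genes. The highest-scored H3K4me3 peak within 500 bp measured from 236 to 409 bp over the lists at sdc-1, sdc-2 and sdc-3, and from 773 to 1597 bp at mix-1, dpy-27, dpy-26 and capg-1, so these ranges do not overlap. The grouping by width was made with the values known and has no test. The marked peaks at mix-1, dpy-26 and capg-1 also lay within 500 bp of an end of another coding gene. Those at dpy-27 and the SDC genes did not, so width and a shared peak cannot be told apart for most of these genes. Over all 6107 protein-coding genes with the mark the median width was 1058 bp, with quartiles of 624 and 1464 bp. The share of those genes with a narrower mark was 15.3% for sdc-1, 13.1% for sdc-2 and 10.4% for sdc-3, against 37.4% for capg-1, 51.8% for dpy-26, 67.0% for dpy-27 and 77.9% for mix-1. At sdc-1, sdc-2 and dpy-27 the mark was split into a pair of peaks around CFP-1. The summed widths were 702 and 714 bp at sdc-1, 975 and 1053 bp at sdc-2, and 2067 and 1779 bp at dpy-27. Those of sdc-1 were still below all condensin genes. Those of sdc-2 were above capg-1 in both lists and within the condensin range, so the separation does not hold for the summed length. CFP-1 widths were closer together, from 181 to 356 bp at the SDC genes and from 284 to 489 bp at the 4 condensin genes, and these ranges overlap.

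**Figure D2:**
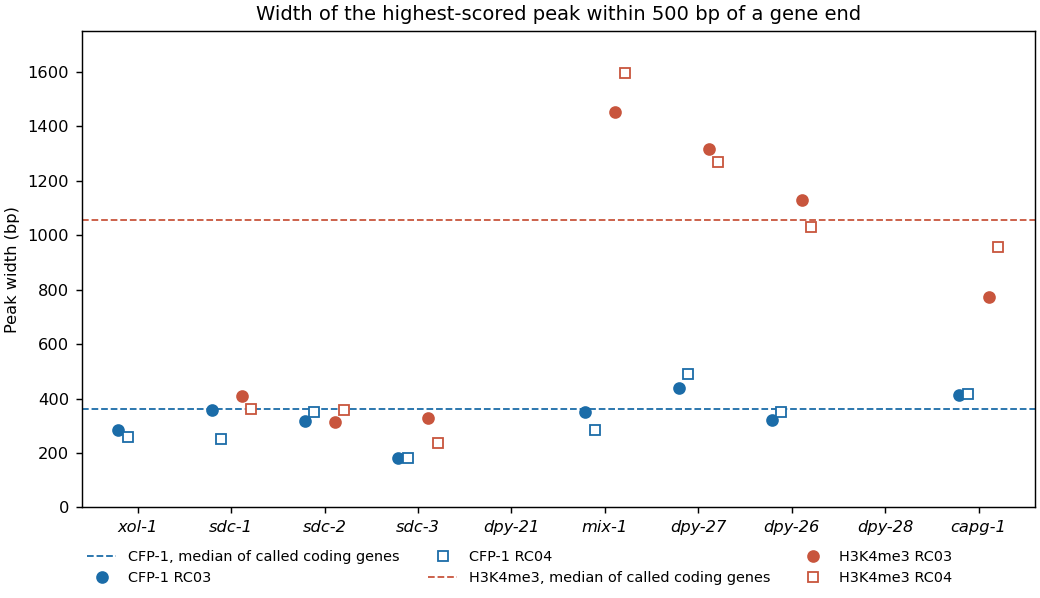
Width in bp of the highest-scored peak within 500 bp of a gene end, filled for RC03 and open for RC04, with dashed lines at the medians of called protein-coding genes (363 bp for CFP-1 and 1058 bp for H3K4me3). The single peaks of the mark are narrower at the SDC genes than at the 4 condensin genes with a call, of which capg-1 lies below the median in both lists, while CFP-1 stays below 500 bp at all 8 genes.

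Over the genes with a peak, the median CFP-1 width was 336 bp in RC03 and 317 bp in RC04, and the median H3K4me3 width was 773 bp and 957 bp. The mean difference, CFP-1 minus H3K4me3, was -538 bp (exact permutation test over the 4 lists, two-sided p = 0.33). This is the smallest p that a comparison of 2 lists with 2 can give. Once the list medians of both antibodies separate fully, p takes this value whatever the spread between lists. The labels do not say whether RC03 and RC04 stem from different cultures, so that spread may be technical.

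In order of mean CFP-1 rank the genes were dpy-27 (91.3 ± 0.0654), capg-1 (79.9 ± 2.35), mix-1 (78.3 ± 1.88), sdc-1 (74.8 ± 0.574), sdc-2 (72.3 ± 4.18), dpy-26 (70.7 ± 5.99), xol-1 (57.3 ± 10.5) and sdc-3 (52.2 ± 3.08; SD, n = 2 each). The ranges over both lists did not overlap between dpy-27 and capg-1, mix-1 and sdc-1, or dpy-26 and xol-1. The order of capg-1 and mix-1, of sdc-1 and sdc-2, and of xol-1 and sdc-3 changed between the lists, and sdc-2 lay above dpy-26 in each list although their ranges over the lists overlap. The median over the 8 genes was 73.5, against 77.7 over the 5177 protein-coding genes with CFP-1 (quartiles 55.7 and 90.3). For H3K4me3 the order was dpy-26 (95.9 ± 1.95), mix-1 (85.9 ± 1.98), capg-1 (82.2 ± 4.56), dpy-27 (80.9 ± 0.741), sdc-1 (73.8 ± 5.70), sdc-3 (67.7 ± 4.70) and sdc-2 (55.4 ± 9.48; SD, n = 2 each). Here the ranges did not overlap between dpy-26 and mix-1, dpy-27 and sdc-1, or sdc-3 and sdc-2. The last of these rests on the 500 bp limit. The stronger sdc-2 peak beyond it ranked at 66.7 in RC03 and 69.7 in RC04, within the range of sdc-3. The ranges of mix-1 and capg-1 overlapped, although mix-1 was higher in each list. The order of capg-1 and dpy-27 and of sdc-1 and sdc-3 changed between the lists. The median over the 7 genes was 80.9, against 84.9 over the called protein-coding genes (quartiles 71.0 and 93.0). For both antibodies the median of the listed genes lay between the quartiles of the called genes.

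The 3 genes on X were sdc-1, sdc-2 and xol-1, and all had CFP-1, against 22.2% of the protein-coding genes on X. Of the 7 autosomal genes 5 had it, against 26.5% of autosomal coding genes. Their CFP-1 ranks ran from 49.9 to 75.3, against 50.02 to 91.4 at the autosomal genes with a call, so the ranges overlap. H3K4me3 was called at 2 of the 3, against 26.2% of X-linked coding genes, with ranks of 48.7 to 77.8, and at 5 of the 7 autosomal genes, against 31.3% of autosomal coding genes, with ranks of 64.4 to 97.3. No test was made between these few genes.

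A list of 19 other genes gives the surroundings: sex determination and condensin genes, the histone methyltransferase genes set-1 and set-4, and dpy-30. CFP-1 was called at 10 of them and H3K4me3 at 13, against 25.9% and 30.6% of all protein-coding genes. All 10 with CFP-1 had overlapping peaks of both antibodies, and set-1, set-4 and dpy-30 were among them. No gene of this list had CFP-1 without the mark. The median CFP-1 rank over the 10 was 91.8, and the median H3K4me3 rank over the 13 was 87.6.

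The genes that feed into xol-1 differed among themselves. The X signal gene ceh-39, which encodes a ONECUT homeodomain protein, had CFP-1 scores of 116 and 135 and H3K4me3 scores of 68.1 and 64.9. Its rank of 95.1 ± 0.915 (SD, n = 2) for CFP-1 lay far above the 57.3 of xol-1. The X signal gene sex-1, a nuclear hormone receptor, had a wide H3K4me3 peak across its upper end, of 4037 bp in RC03 and 2728 bp in RC04. It reached 2508 and 1027 bp into the gene, which is 4093 bp long. That peak held 4 CFP-1 peaks in RC03 and 3 in RC04, but only 1 of these, in RC04 and with a score of 3.04, lay within 500 bp of a gene end. The RNA-binding protein gene fox-1 had weak marks, 8.29 in RC03 and 2.81 in RC04 for the highest-scored peaks, which are not the same peak. The autosomal signal genes sea-1, of a T-box protein, and sea-2, of a zinc finger protein, had neither antibody.

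Downstream of the switch, 3 of 7 genes had overlapping peaks of both antibodies and 4 had neither. Among all protein-coding genes the shares were 22.8% and 66.6%, so having neither was the usual state. The secreted male signal her-1, its receptor gene tra-2, the calpain gene tra-3 and the terminal regulator gene tra-1, a zinc finger factor, had no peak of either antibody within 500 bp of an end. The 3 with both were the fem genes, which act between the receptor and tra-1. The CFP-1 ranks averaged 73.0 ± 3.83 at fem-1, 91.7 ± 0.117 at fem-2 and 95.6 ± 0.45 at fem-3 (SD, n = 2 each), and the H3K4me3 ranks 94.4 ± 1.58, 86.2 ± 0.0476 and 87.3 ± 2.20. Peaks at all 3 genes also lay within 500 bp of an end of another coding gene, drp-1 for fem-1, eakr-4 for fem-2, and aly-1 and C01F6.14 for fem-3.

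The condensin genes outside the dosage compensation complex all had the mark, against 30.6% of all protein-coding genes. They are smc-4, which encodes the SMC4-type ATPase of the mitotic condensins, and capg-2, hcp-6 and kle-2, which encode subunits of condensin II. Their H3K4me3 widths ran from 1072 to 1644 bp, above the 236 to 409 bp of the SDC genes. Among protein-coding genes with the mark, the share with a narrower one ran from 56.2% for kle-2 to 78.9% for hcp-6. Each of these peaks also lay within 500 bp of an end of another coding gene, unlike those of the SDC genes. The neighbours were F35G12.5 and F35G12.7 (smc-4), tsfm-1 (capg-2), let-630 (hcp-6), and C29E4.10 and C29E4.12 (kle-2). CFP-1 was called at smc-4, capg-2 and hcp-6, with ranks from 68.4 to 94.9. At kle-2 the marked interval of 1072 and 1202 bp held a CFP-1 peak, but it lay more than 500 bp from the gene. The genes set-1 and set-4 encode H4 lysine 20 methyltransferases, which add methyl groups to the lysine that DPY-21 demethylates. Their CFP-1 scores were 66.0 and 83.9 (set-1) and 186 and 181 (set-4). All peaks at set-4 also lay within 500 bp of an end of the coding gene ttc-39B, so they cannot be assigned to set-4 alone. At set-1 the highest-scored H3K4me3 peaks lay within 500 bp of an end of jhdm-1, but the CFP-1 peaks with these scores did not. The gene dpy-30, which encodes a subunit of both the dosage compensation and COMPASS complexes, had CFP-1 scores of 95.8 and 104 and H3K4me3 scores of 119 and 96.2. Its promoter is also part of the transgene, and peaks from either copy cannot be told apart. The highest-scored H3K4me3 peaks at dpy-30 also lay within 500 bp of an end of the coding gene rnp-1.

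**Figure D3:**
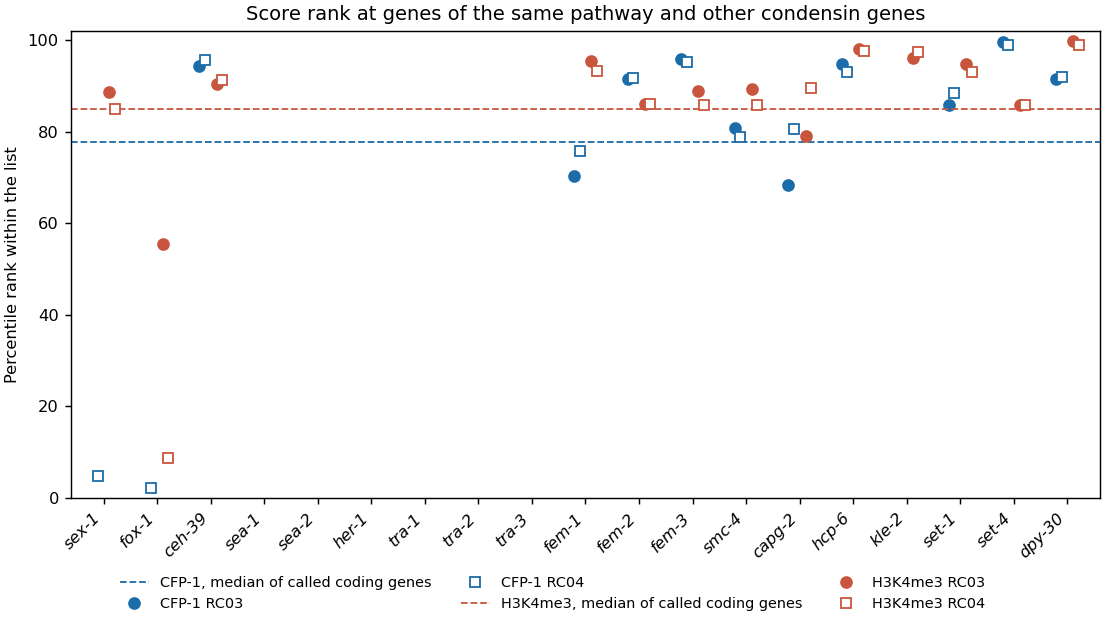
Percentile rank of the highest-scored peak within 500 bp of a gene end at 19 related genes, filled for RC03 and open for RC04, with dashed lines at the medians of called protein-coding genes (77.7 for CFP-1 and 84.9 for H3K4me3). Columns without points, such as her-1 and the tra genes, had no peak, and sex-1 and fox-1 had a CFP-1 peak in RC04 alone.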

How the data were processed

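Per the submitters' processing notes, the authors used BWA for alignment, build ce10, and MACS2 (version 2.0.10) for peaks, with 1 list per sample. The deposited score (column 5) is −log10 of either a p-value or a q-value. Which of both it is, the control sample and the caller's threshold: not given in the sources used here. Its lowest values lie between 1.30 and 1.41. Peak names carry a larval stage abbreviation, while the labels give late embryos, which were followed. The lists hold from 9216 to 12343 peaks, and their depth is unknown.

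Gene ends came from a RefSeq table of WBcel235, without strand. A call needed a peak with any base within 500 bp of the same gene end in both lists of an antibody, and overlap 1 bp or more. The highest-scored peak stood for a gene. All 10 listed and 19 related genes matched by symbol and are all named. The genes and lists were chosen with earlier results of these data known. Alternatives are given at the end. The overlap code was checked against bedtools 2.31.1 and tested on simulated data. The software was Python 3.11.15 with pandas 2.3.3, numpy 2.4.6 and, for figures, matplotlib 3.10.9. CpG counts of promoters had been planned and were not run, as no promoter sequence was used here.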

Additional observations from a re-analysis of the deposited data

How the results depend on the processing

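Of 31 values under alternative settings other than leaving out a list, 29 were unchanged, 2 moved and 0 reversed. Unchanged means a count within 1.5 times, a median within 1 SD of the lists, or the same sign. Medians with a list left out say nothing here, since the mean of 2 list medians cannot move by 1 SD when either is dropped. With a window of 250 bp the median CFP-1 width was 304 bp (327 bp at 500 bp), and with 1000 bp the median H3K4me3 rank was 77.3 (80.2 at 500 bp, as the mean of the list medians). CFP-1 at sdc-2 and dpy-27 needed the 500 bp window: at 250 bp, or by peak midpoint, 6 genes had CFP-1 and 5 overlapping peaks. Among the 50% of peaks with higher scores, xol-1 lost CFP-1 and sdc-2 lost the mark. With overlap of 50% of the shorter peak, sdc-1 and sdc-2 dropped out, leaving 5. As a replicate block, overlap counted only between lists of the same number gave 7 genes, and the width difference gave the same -538 bp (exact sign-flip permutation p = 0.5, the smallest possible). Leaving out each list in turn gave 8, 7 and 7 genes for CFP-1, H3K4me3 and overlap, and width differences of -630 to -446 bp. Transcript starts and promoter CpG were not run. With depth unknown, a gene without a called peak may still carry CFP-1 or the mark.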
